A study of Mus musculus with 8 samples.

Results

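The transcripts of 9 T-box transcription factors were followed in mouse embryos at E9.5, in the posterior second heart field (pSHF): Tbx1, Tbx2, Tbx3, Tbx4, Tbx5, Tbx6, Tbx15, Tbx18 and Tbx20. They were taken by gene name from the arrays, with every probe that carried the name, which gave 18 probes among the 41174 probes of the design. A probe was tested when the scanner software had marked it as clearly above its background throughout the 4 arrays of either genotype. That held for 10 of the 18 T-box probes, covering 7 genes, and for 20031 probes overall. Tbx4 and Tbx15 had no probe that reached this level and are given by their signals only.

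The study asked which transcripts depend on Tbx5 in the tissue that forms the atrial septum. A group of 4 Tbx5-/+ samples, written Tbx5+/- here, carried 1 mutant Tbx5 allele, and a group of 4 samples was wild-type. The heterozygous line was kept on a mixed background, and the females of both groups received gonadotropins before mating. Each sample was a pool of RNA of pSHF, taken between the inflow and outflow tracts after the neural tube had been cut away through the foregut, and was hybridized to 1 single-colour Agilent array. The labels give neither the number of embryos in a pool nor the part of Tbx5 that is mutated, so no probe could be placed inside or outside the mutated stretch. Both groups carry the embryo numbers 1, 5, 6 and 7, and the labels put numbers 1 and 5 on array 1 and numbers 6 and 7 on array 2. Signals are log2 values after variance stabilization (VSN), and a difference of 1 is a 2-fold change. Differences are Tbx5+/- minus wild-type, and p was adjusted over all 20031 probes with limma.

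T-box factors share the T-box, a conserved domain that binds DNA, and act as activators (Tbx5, Tbx1 and Tbx6) or mainly as repressors (Tbx2, Tbx3, Tbx15 and Tbx18) of transcription, with Tbx20 able to do both. In the heart they divide the work by region: Tbx5 drives the atrial and septal program in the inflow, Tbx1 keeps progenitors of the anterior second heart field growing, Tbx18 marks the sinus horns and the epicardium, and Tbx2 and Tbx3 hold back the working myocardial program in the canal and in the conduction system. Tbx4, Tbx15 and Tbx6 are best known from the hindlimb, from skin and skeleton, and from the paraxial mesoderm.

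The arrays differed in ways that touch every gene. The share of spots well above background ran from 45.0% to 52.8% in Tbx5+/- and from 50.9% to 63.6% in wild-type (exact permutation p = 0.0571), and the array medians over the probes tested were 9.39 to 9.87 in Tbx5+/- and 9.89 to 10.07 in wild-type, without overlap (exact permutation p = 0.0286). The median of the differences of single probes was -0.20. It was -0.21 in the deposited values, but 0.095 after scaling to the 75th percentile, -0.014 after quantile normalization and 0.13 after centring each array on its median, so differences of the 10 T-box probes tested are also given relative to it. The Tbx5+/- array of embryo number 1 lay with the wild-type arrays on the leading principal component (-35.3, against -53.2 to -10.5 in wild-type and 24.1 or more on the other Tbx5+/- arrays). The gap between the 5′ and the 3′ probe of a gene (log2, median over genes) was -2.15 in Tbx5+/- and -1.87 in wild-type (exact permutation p = 0.143). Embryo number 1 had the narrowest gap in each group, -1.72 and -1.68. Markers of the pSHF were well measured, with 11 of 12 tested, and Nr2f1 was not.

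With limma, 0 of the 10 T-box probes passed an adjusted p of 0.05 in either direction, as did 0 of all 20031 probes (0%). The smallest value among them was that of Tbx5, 0.0929. At an unadjusted p under 0.05, 4 T-box probes were lower in Tbx5+/- (1 each of Tbx5, Tbx3, Tbx18 and Tbx20) and 0 were higher, against 17.6% lower and 3.31% higher among all probes. The Tbx18 and Tbx20 probes were admitted through the wild-type group alone, being well above background on 1 and 0 Tbx5+/- arrays. With probes required to be so on all 8 arrays, 2 of 7 T-box probes were lower, those of Tbx5 and Tbx3, against 2620 of all 16761 such probes. Samples of the same embryo number deviated together from their group means, least so in number 7 (r = 0.14). The pools were therefore also compared within numbers. With the embryo number as a block, 4 T-box probes passed as lower, 1 each of Tbx5, Tbx3, Tbx18 and Tbx20, the latter pair being those dim ones. By the brightest probe of each gene 2 of 7 passed, Tbx3 and Tbx5. Of all probes, 10.3% passed in this fit, 9.91% as lower. Leaving out 1 array moved the count to 3 without Tbx5+/- number 1 (Tbx5, Tbx3 and Tbx18, with 16.7% of all probes) and to 1 without wild-type number 1 (Tbx5, with 0.929%), and it was 0 without any other. SAM, the test of the study's methods, run on the probes that vary most, gave a q-value of 0 for Tbx5, 0.0236 for Tbx3 and for Tbx18 and 0.0424 for Tbx20, where 25% of those probes were below 0.05. limma on the same probes passed Tbx5 alone of the T-box genes (2.7% of the probes).

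**Figure D1:**
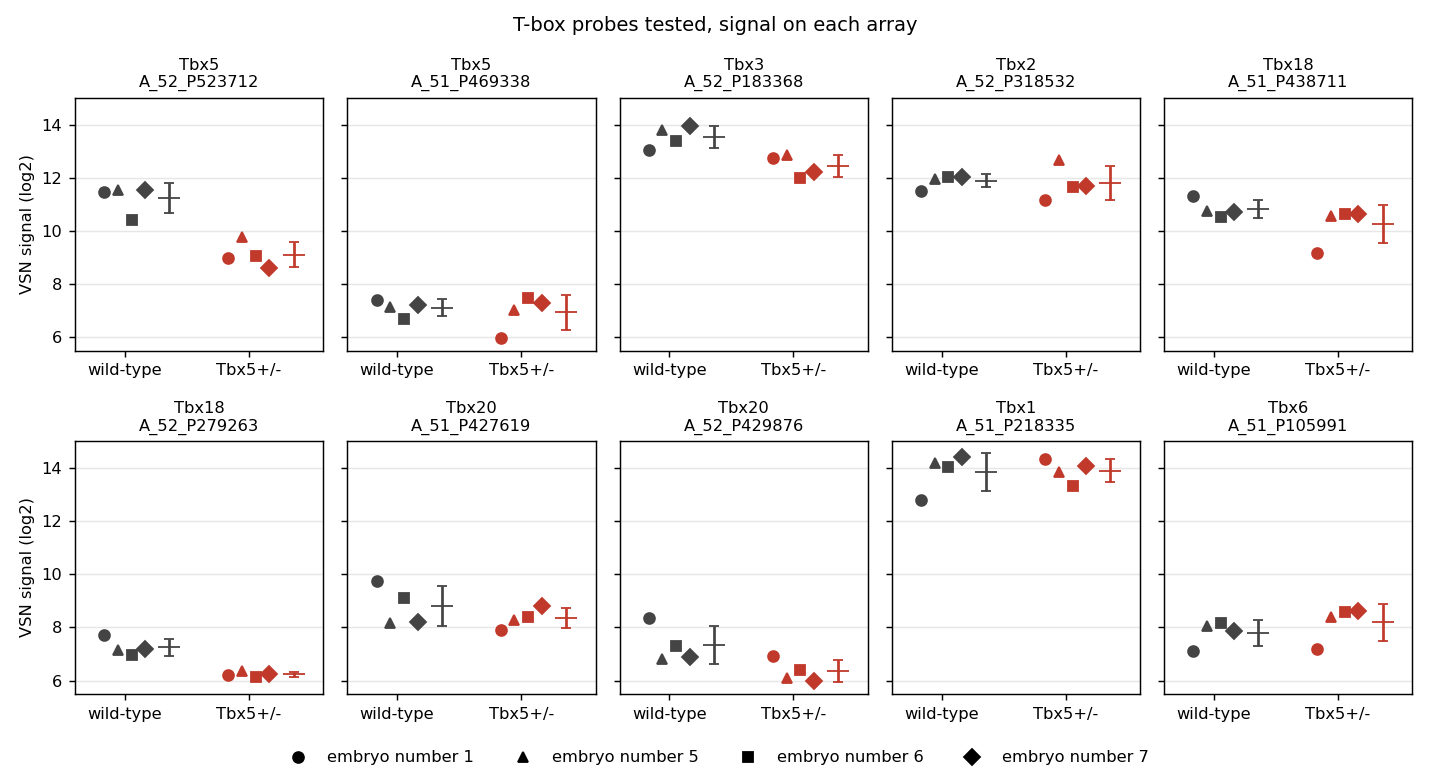
VSN signal (log2) of the 10 T-box probes tested, in wild-type (grey) and Tbx5+/- (red), with 1 point per array, a marker shape per embryo number and the mean with its SD (n = 4) to the right of each group. The groups are apart for Tbx5 probe A_52_P523712, Tbx3 and Tbx18 probe A_52_P279263 and overlap in the other 7 panels.

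Tbx5, the gene mutated in this line and the gene of Holt-Oram syndrome, is read by 2 probes. A_52_P523712 lies at chr5:120334087-120334146 on the plus strand (mm9, as are all probe positions), and A_51_P469338 crosses at least 1 intron, since its 60 bases span 11563 bases of the genome, from chr5:120321392 to 120332954, and end 1132 bases before the former begins. Both are shown because their results part, the crossing probe whole and the other by its leading 30 bases, each 5′ to 3′.
Tbx5 A_51_P469338: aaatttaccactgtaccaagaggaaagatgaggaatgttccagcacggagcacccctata
Tbx5 A_52_P523712: aaatacctacctccgtcatgtgagatgtct

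On A_52_P523712 the Tbx5+/- arrays of embryo numbers 1, 5, 6 and 7 gave 9.0, 9.77, 9.07 and 8.63, and the wild-type arrays of the same numbers gave 11.48, 11.54, 10.42 and 11.55. The groups did not overlap, and the nearest pools were Tbx5+/- number 5 and wild-type number 6, the lowest wild-type pool. The means were 9.12 ± 0.47 (SD, n = 4) and 11.25 ± 0.55 (SD, n = 4), a difference of -2.13 (SE 0.32, 95% interval -2.85 to -1.41), which is 4.38-fold lower. Against the median of all probes it was -1.93. The limma adjusted p was 0.0929 and the exact permutation p was 0.0286, the smallest that 8 arrays allow. With the embryo number as a block the limma adjusted p was 0.0291. The transcript was lower within every embryo number, by differences of -2.48, -1.77, -1.35 and -2.92, and by -2.13 within each of the 2 array labels.

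On A_51_P469338 the same pools gave 5.99, 7.03, 7.47 and 7.31 in Tbx5+/- and 7.43, 7.14, 6.68 and 7.23 in wild-type. The groups overlapped, and only embryo number 1 was clearly low in Tbx5+/-. The difference was -0.17 (SE 0.33, 95% interval -0.90 to 0.56, limma adjusted p 0.769) and 0.031 relative to the median of all probes, on a probe that was well above background on 3 of 4 Tbx5+/- arrays. Its sign turned after centring (0.16), with array weights (0.091) and without Tbx5+/- embryo number 1 (0.15). The change of A_52_P523712 exceeded that of A_51_P469338 by -1.96, with an exact permutation p of 0.0286 that became 0.0857 after adjustment over the 3 genes with a pair of tested probes. Without Tbx5+/- number 1 all 3 such pairs passed (adjusted 0.0286 by the exact permutation test). What part the mutation, transcript ends or signal near background have in the gap between the probes was not tested.

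Tbx3, which keeps the conduction system from taking a working myocardial identity, lies beside Tbx5 on chromosome 5, its main probe being 186859 bases before the intron-crossing probe of Tbx5. This probe, A_52_P183368 (chr5:120134473-120134532, plus strand), begins as follows over 30 bases.
Tbx3 A_52_P183368: ggcatcttactaacccatgtgaggttttca

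Its signal was 12.75, 12.85, 11.99 and 12.23 in Tbx5+/- numbers 1, 5, 6 and 7 and 13.05, 13.81, 13.37 and 13.96 in wild-type. The groups did not overlap, though the pools of number 1 lay close to each other. The difference was -1.09 (SE 0.28, 95% interval -1.72 to -0.47), which is 2.13-fold lower, from 12.45 ± 0.41 (SD, n = 4) against 13.55 ± 0.42 (SD, n = 4). The limma adjusted p was 0.114, and 0.0386 with the embryo number as a block. Within numbers 1, 5, 6 and 7 the difference was -0.30, -0.96, -1.38 and -1.73. It was -0.89 relative to the median of all probes and -0.71 with percentile scaling. The second Tbx3 probe, A_52_P389431, lies 11672 bases upstream of it and reached that mark on 0 Tbx5+/- and 2 wild-type arrays, so it was not tested. It was nevertheless lower in each of the 4 pairs, with values of 4.17 to 5.10 against 5.24 to 5.76 that did not overlap.

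Across the 7 genes tested, by the brightest probe of each, Tbx3 and Tbx5 were the 2 whose groups did not overlap, both lower in Tbx5+/-. Over all probes with a value on every array, 8.45% were lower without overlap and 0.754% were higher. When arrays were scaled by percentile, by quantiles or to their medians, 1 T-box gene was left, Tbx5, since the Tbx3 groups then overlapped.

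Tbx2, a close relative of Tbx3 that represses chamber genes in the atrioventricular canal, did not pass. Its probe, A_52_P318532 (chr11:85654494-85654553), gave 11.18, 12.69, 11.67 and 11.71 in Tbx5+/- and 11.52, 11.97, 12.04 and 12.02 in wild-type. The difference was -0.07 (SE 0.31, 95% interval -0.76 to 0.61, limma adjusted p 0.898), or 0.13 relative to the median of all probes, and number 5 was higher in Tbx5+/- while the other three were lower. Its sign turned to 0.27 with percentile scaling, 0.067 with quantile normalization and 0.26 with centred arrays.

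Tbx18, a repressor needed for the sinus horn myocardium and expressed in the epicardium, is read by 2 probes 177 bases apart on the minus strand of chromosome 9. They are A_51_P438711 (chr9:87599514-87599573) and A_52_P279263 (chr9:87599751-87599810), and neither holds an open reading frame over its 60 bases. Their leading 30 bases are shown because the pair of probes sits so close and yet gave unlike results.
Tbx18 A_51_P438711: gtgcagaagctggttaaatcttagtatatt
Tbx18 A_52_P279263: tccagaataatcagactctaaaagtaaaat

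The brighter probe, A_51_P438711, gave 9.18, 10.58, 10.63 and 10.65 in Tbx5+/- numbers 1, 5, 6 and 7 and 11.34, 10.75, 10.53 and 10.72 in wild-type. Number 1 alone made the difference of -0.58 (SE 0.35, limma adjusted p 0.333): within the numbers it was -2.16, -0.17, 0.098 and -0.07. Without Tbx5+/- number 1 it was -0.22, and relative to the median of all probes -0.37. It was -0.24 with percentile scaling, -0.30 with quantile normalization, -0.13 with array weights and -1.0 with the gap between 5′ and 3′ probes as a covariate. The dimmer probe, A_52_P279263, gave 6.20, 6.35, 6.13 and 6.26 in Tbx5+/- and 7.72, 7.15, 6.95 and 7.18 in wild-type, without overlap. It was lower by -1.01 (SE 0.21, 95% interval -1.48 to -0.54), 2.02-fold, with a limma adjusted p of 0.098 and of 0.0311 with the embryo number as a block, and by -1.52, -0.80, -0.82 and -0.91 within the numbers. Relative to the median of all probes it was -0.81, and with percentile scaling -1.17. It reached the background mark on 4 wild-type arrays and on 1 Tbx5+/- array, and the Tbx5+/- values were close together (SD 0.094 against 0.33). The changes of the 2 probes differed by 0.44, which did not exceed the spread between pools (exact permutation p = 0.171, adjusted 0.257).

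Tbx20, expressed through the early heart and required for its growth, has 4 probes on the minus strand of chromosome 9, of which 2 were tested. A_51_P427619 (chr9:24526210-24526269) was designed on a cDNA clone that is placed 1480 bases further 3′ than A_52_P429876 (chr9:24527750-24527809), which was designed on a RefSeq transcript. Each begins as follows over 30 bases.
Tbx20 A_51_P427619: actaaggagcatgtaagacactgcatttaa
Tbx20 A_52_P429876: gtagttggtttccagacaaaatacagatgt

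On A_52_P429876 the signal was 6.95, 6.09, 6.40 and 6.0 in Tbx5+/- and 8.36, 6.81, 7.29 and 6.88 in wild-type. In each embryo number the Tbx5+/- pool was the lower one, by -1.42, -0.71, -0.88 and -0.88, but number 1 was the highest pool in both groups, so the groups overlapped. The difference was -0.97 (SE 0.36, 95% interval -1.78 to -0.16), with a limma adjusted p of 0.209 and of 0.0319 with the embryo number as a block. Relative to the median of all probes it was -0.77. It was -0.63 without wild-type number 1, -0.64 after centring, -1.42 with percentile scaling and -0.50 with the gap covariate (limma adjusted p 0.564). The probe was not well above background on any Tbx5+/- array. With signals under the background level of those arrays raised to it, the group mean was 1.86-fold lower. That value leaves out the spread between pools. On A_51_P427619 the values were 7.89, 8.30, 8.41 and 8.81 against 9.75, 8.17, 9.09 and 8.23. That difference was -0.46 (SE 0.37, limma adjusted p 0.45), higher in Tbx5+/- for numbers 5 and 7 and lower for numbers 1 and 6. It was -0.26 relative to the median of all probes, -0.12 with percentile scaling, -0.087 with quantile normalization and -0.15 without wild-type number 1, and it turned to 0.31 with array weights. The changes of the 2 probes differed by 0.51 (exact permutation p = 0.314, adjusted 0.314). The other 2 Tbx20 probes, A_52_P199191 and A_51_P445173, the latter also designed on a RefSeq transcript, were not well above background on any array.

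**Figure D2:**
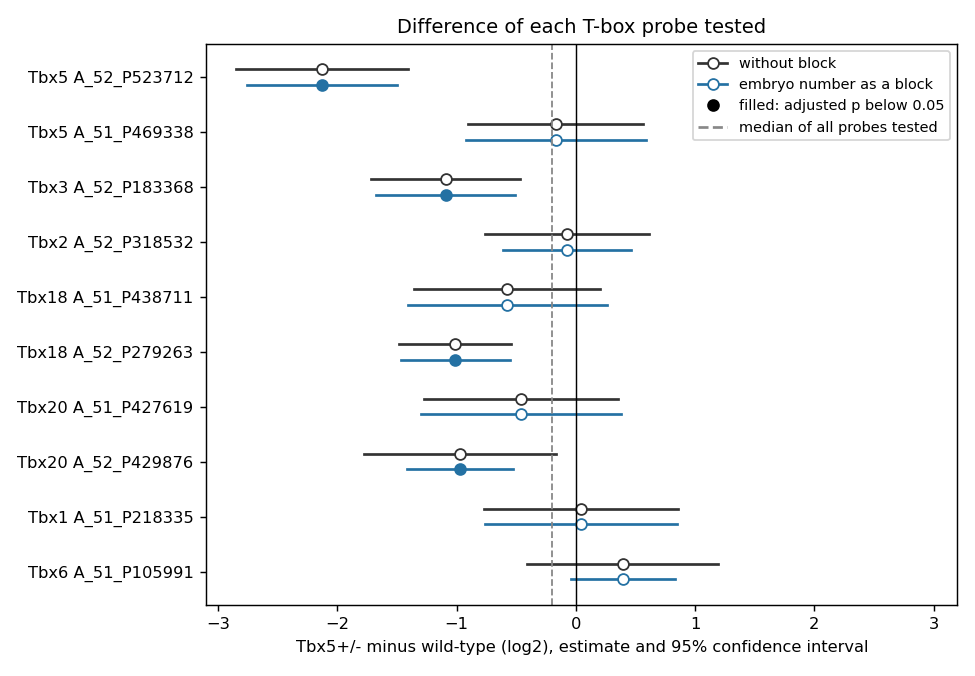
Difference between Tbx5+/- and wild-type (log2) of the 10 T-box probes tested, with 95% confidence intervals from limma without (grey) and with (blue) the embryo number as a block. Filled points have an adjusted p below 0.05, which holds for 0 probes without the block and for 4 with it, and the dashed line is the median of all probes at -0.20.

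Tbx1, the DiGeorge syndrome gene and a regulator of the anterior second heart field and pharynx, showed no difference beyond the spread between pools. Its probe, A_51_P218335 (chr16:18581816-18581875), gave 14.33, 13.85, 13.32 and 14.09 in Tbx5+/- and 12.80, 14.18, 14.03 and 14.41 in wild-type. Embryo number 1 went against the others, with a difference of 1.54 against -0.33, -0.71 and -0.33 in numbers 5, 6 and 7. Over all arrays the difference was 0.04 (SE 0.36, 95% interval -0.77 to 0.86, limma adjusted p 0.952), 0.24 relative to the median of all probes, and without wild-type number 1 it was -0.31.

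Tbx6, which sets paraxial mesoderm on the somite path and away from a neural one, was, by the brightest probe of each gene tested, the member with the largest difference above 0. Its probe, A_51_P105991 (chr7:133928999-133929058), gave 7.18, 8.38, 8.59 and 8.61 in Tbx5+/- and 7.11, 8.07, 8.15 and 7.85 in wild-type. The Tbx5+/- pool was the higher in each number, by 0.068, 0.31, 0.43 and 0.76, and number 1 was low in both groups. The difference was 0.39 (SE 0.36, 95% interval -0.41 to 1.2), with a limma adjusted p of 0.514 and of 0.184 with the block, and was 0.59 relative to the median of all probes. It was 0.77 with percentile scaling, 0.73 without Tbx5+/- number 1 and 0.16 without wild-type number 1. With weights for array quality 53.4% of all probes passed, Tbx6 among them (limma adjusted p 0.00896), while with the gap between 5′ and 3′ probes as a covariate its sign turned (-0.30). Of 7 genes of the paraxial mesoderm, 1 was tested, Dll1, a Notch ligand and a target of Tbx6, at 0.65 (limma adjusted p 0.246, groups overlapping), and 0 of 4 somite markers tested reached an unadjusted p under 0.05 with limma.

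Tbx15 and Tbx4 had no probe well above background on all 4 arrays of a group. The brightest of 3 Tbx15 probes, A_52_P232802, was well above it on 3 arrays of each group, with values of 6.53 to 8.73 in Tbx5+/- and 5.99 to 7.94 in wild-type. The second, A_51_P169659, was so on 1 and 3 arrays, and the third, A_52_P648635, on 0. Neither Tbx4 probe, A_52_P562827 or A_52_P16899, was well above background on any array, with signals of 4.41 to 6.64 and 4.75 to 5.65 in Tbx5+/- and 4.83 to 5.48 and 5.10 to 5.46 in wild-type. Of 8 further genes of the family (T, Eomes, Tbr1, Tbx10, Tbx19, Tbx21, Tbx22 and Mga) only Mga, a large protein that joins a T-box to a Max-binding domain, was tested. Mga was lower by -1.41 (SE 0.44, limma adjusted p 0.166, and 0.0401 with the embryo number as a block), with 11.18, 9.57, 8.73 and 9.82 in Tbx5+/- against 11.21, 11.20, 10.90 and 11.64. Its pools of number 1 were alike, and the others were not.

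**Figure D3:**
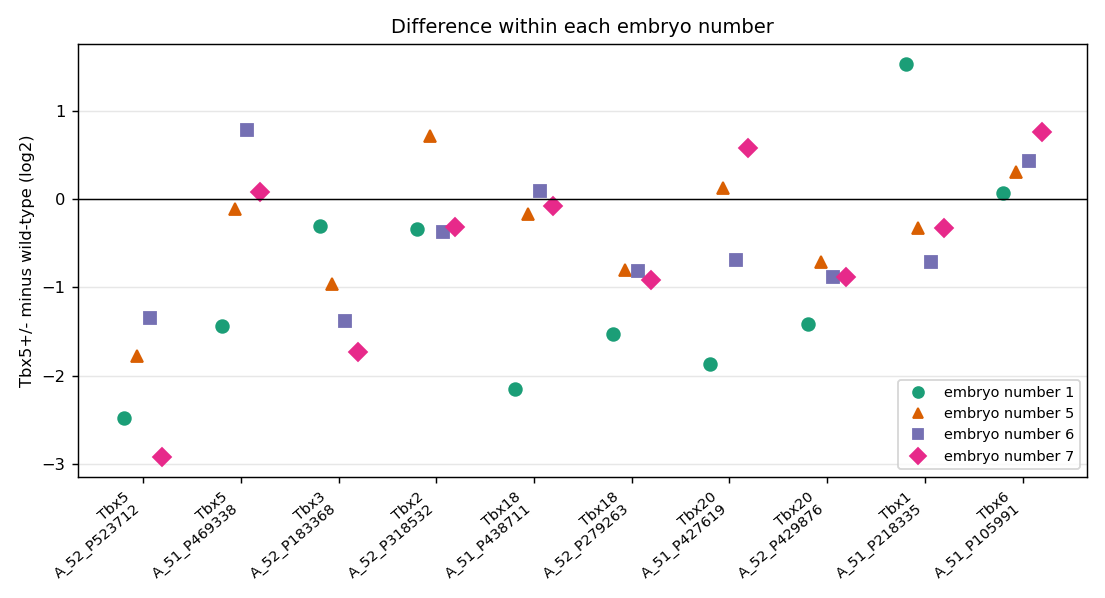
Difference between the Tbx5+/- and the wild-type pool of the same embryo number (log2) for the 10 T-box probes tested, with 1 marker shape and colour per number. Tbx5 probe A_52_P523712, Tbx3, Tbx18 probe A_52_P279263 and Tbx20 probe A_52_P429876 lie below 0 in all 4 numbers and Tbx6 above it in all 4, while number 1 is the outermost point of Tbx5 probe A_51_P469338, of both Tbx18 probes, of Tbx1 and of both Tbx20 probes.

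To compare Tbx5 with its relatives directly, its change was set against that of the brightest probe of each other gene in the same pools. The change of Tbx5 was larger than that of Tbx6 by -2.52, of Tbx1 by -2.17, of Tbx2 by -2.06 and of Tbx18 by -1.55 (exact permutation p = 0.0286 each, 0.0429 after adjustment over the 6 pairs). Against Tbx20 it was -1.67 and against Tbx3 -1.04 (exact permutation p = 0.0571 each, adjusted 0.0571), which does not show that these changed alike. Within embryo numbers the exact sign-flip test over 4 pairs cannot go below 0.125.

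Genes that act with T-box factors were described next, as 15 partners of the T-box proteins. All 15 were tested, and 7 were lower and 1 higher at an unadjusted p under 0.05, where the background was 17.6% and 3.31%. The median difference was -0.55, against -0.20 for all probes and -0.14 with 1 probe per gene. With limma 0 passed the adjustment, and with the embryo number as a block 6 passed as lower, where 9.91% of all probes did, and 1 as higher. The 3 without overlap were Wwtr1, Gata4 and Gata6, where 8.45% of all probes were lower without overlap. Wwtr1, which encodes the coactivator Taz, gave 11.45, 9.98, 8.77 and 9.33 against 12.07, 12.63, 11.63 and 12.82, a difference of -2.41 (SE 0.52, limma adjusted p 0.098, and 0.0291 with the block). Gata4, the zinc finger factor that binds Tbx5, differed by -1.39 (SE 0.38, limma adjusted p 0.123, 0.0291 with the block), and its sister Gata6 by -1.18 (SE 0.30, 0.116 and 0.0333). Gata4 was admitted through the wild-type group alone, being well above background on 2 Tbx5+/- arrays. Ripply3, a corepressor that binds Tbx1, was the gene with the higher signal, at 1.0 (SE 0.42, limma adjusted p 0.228, 0.0333 with the block), and its groups overlapped.

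Of 12 genes known to lie downstream of Tbx5 all were tested. At an unadjusted p under 0.05 (17.6% of all probes lower), 4 were lower and 0 higher. The median difference was -0.18, against -0.20 for all probes and -0.14 with 1 probe per gene, as in the list. Foxf1, a Forkhead factor of the splanchnic mesoderm, differed by -1.61 (SE 0.36, limma adjusted p 0.098, and 0.0312 with the block), and Gas1, a Hedgehog coreceptor, by -0.62 (SE 0.22, limma adjusted p 0.196). These were the 2 without overlap (8.45% of all probes). With the block 3 passed, all lower: Osr1, Foxf1 and Ptch1 (9.91% of all probes). All 3 were admitted through the wild-type group alone, being well above background on 3, 3 and 2 Tbx5+/- arrays. Of the genes of the myocardium in this list, the atrial peptide gene Nppa and the connexin gene Gja5 had differences of 0.43 and -0.03, neither past an unadjusted p of 0.05. Without Tbx5+/- number 1 the differences were 1.12 and 0.045. The list rests partly on work in this tissue, so it is not independent of the study.

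Of 7 genes that Tbx2, Tbx3 or Tbx20 are known to repress, 6 were tested. At an unadjusted p under 0.05 with limma, 1 was lower and 1 higher, where 17.6% and 3.31% of all probes were. Of the 6, 0 were without overlap, where 8.45% of all probes were lower and 0.754% higher. The median difference was 0.28. The lower one was the cell cycle inhibitor gene Cdkn1a (-0.71, SE 0.26, limma adjusted p 0.204), and the higher one was the connexin gene Gja1 (1.1, SE 0.42, limma adjusted p 0.211). With the embryo number as a block 0 of the 6 passed with limma, where 10.3% of all probes did. Of 10 genes around Tbx1, 2 were lower and 1 higher, against 17.6% and 3.31% of all probes. Their median difference was 0.099, with 5 below 0 and 5 above. Smad7, an inhibitor of TGF-beta signalling, was the one without overlap (-1.05, SE 0.25, limma adjusted p 0.103, 0.0333 with the block). Fgf8 was the higher one (1.54, SE 0.62, limma adjusted p 0.222, 0.0291 with the block), and its groups overlapped.

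**Figure D4:**
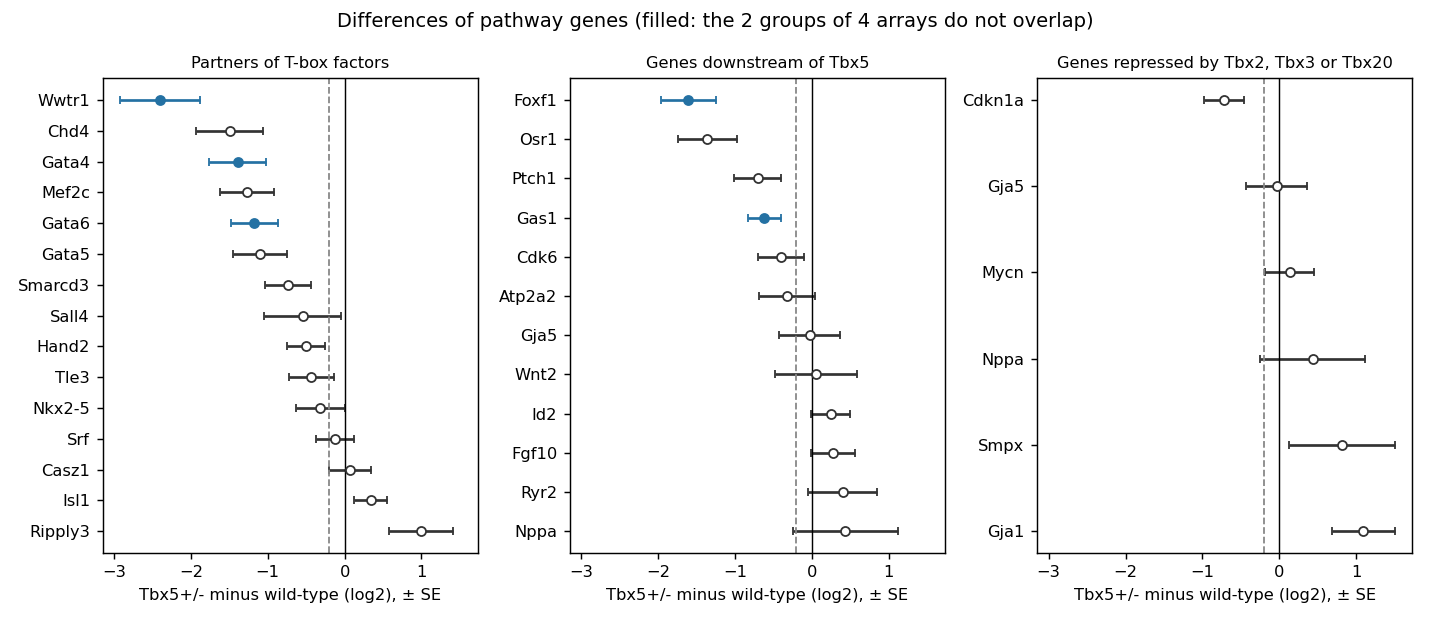
Difference between Tbx5+/- and wild-type (log2, with SE) of the 15 partners, 12 genes downstream of Tbx5 and 6 repressed genes that were tested, with 4 arrays in each group. Filled points mark genes whose groups do not overlap, which are Wwtr1, Gata4 and Gata6 among the partners and Foxf1 and Gas1 downstream of Tbx5, and the dashed line is the median of all probes at -0.20.

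Several T-box genes also mark neighbouring cell types, and in dissected tissue fewer such cells and less transcript per cell cannot be told apart. The counts of lower genes in these lists stand against 17.6% of all probes at an unadjusted p under 0.05 and 8.45% without overlap. With the embryo number as a block, 9.91% of all probes passed as lower. So did 2 endothelial, 1 liver bud, 1 limb bud and 4 pSHF genes, and 1 limb bud gene passed as higher. In the other cell type lists 0 passed with the block. For cardiomyocyte genes, 0 of 12 tested reached an unadjusted p under 0.05 with limma, and the log2 of their summed signal was 18.4 to 19.6 in Tbx5+/- and 18.7 to 19.4 in wild-type. Of 7 epicardial genes 1 was lower, Upk3b (-0.92, SE 0.28, limma adjusted p 0.155), while 4 of the 7 had differences above 0 and the median was 0.17. The summed level was 11.2 to 13.1 against 12.6 to 12.9. Of 10 endothelial genes 3 were lower, among them Kdr (-1.13) and Tie1 (-0.96) without overlap, while 4 had differences above 0 and the median was -0.37, with summed levels of 15.3 to 15.9 and 15.6 to 15.8. In the liver bud list 2 of 6 tested were lower, of which Trf (-1.83) was without overlap, with summed levels of 12.7 to 17.1 and 14.2 to 17.0. All 6 had differences below 0, and the median was -0.91. Limb bud markers had 4 of 8 tested, with 1 lower and 1 higher and summed levels of 11.6 to 13.1 and 12.3 to 12.8, while Hoxd11, Hoxd12, Hoxd13 and Lmx1b did not pass the filter. In foregut endoderm (10 tested), primitive erythrocyte (7), neural tube (4) and somite (4) lists 0 genes reached an unadjusted p under 0.05 with limma. Of the pSHF markers 5 of 11 were lower, Foxf1, Gas1 and the Hedgehog effector gene Gli1 (-1.15, SE 0.37, limma adjusted p 0.175, 0.0302 with the block) without overlap. Foxf1 and Gli1 were each well above background on 3 Tbx5+/- arrays. Of the 11, 6 had differences below 0 and 5 above, and the median was -0.28. Their summed levels were 15.1 to 17.3 in Tbx5+/- and 16.1 to 16.5 in wild-type. The part of these levels in the T-box differences was not tested.

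The transcripts most like Tbx5 over the 8 arrays, among the brightest probes of 13927 genes, were Aftph (Pearson's r 0.974), Gabra4 (0.962) and Lhfpl2 (0.96). After the group means were subtracted they were Snrpd2 (0.986), Ptpn14 (0.968) and Hnrnpu (0.963), so none was in both sets. These are descriptions over 8 arrays chosen from many genes.

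Promoters were searched for T-box letters where RefSeq start sites were given (GRCm38.p6, from 250 bases before to 50 after a start), which covered 6 windows of 5 members: Tbx1, Tbx4, Tbx6, Tbx18 and Tbx20. The core AGGTGT, read on both strands, was found in 1 of the 6, a Tbx1 window, and in 13.7% of all 32851 windows. The GATA letters AGATAA (11.2% of all windows) and the Gli letters GACCACCC (0.807%) were found in 0 of the 6. The stretch around the Tbx1 match, 76 bases before the start, is shown with the match in capitals, at chr16:18590722-18590767 on the minus strand.
Tbx1 promoter: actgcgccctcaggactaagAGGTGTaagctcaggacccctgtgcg
A match of these letters is not a bound site.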

How the data were processed

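RNA of 8 pSHF pools, 4 Tbx5+/- and 4 wild-type, was measured on 8 single-colour arrays. The deposited scanner output, per the file headers made with Agilent Feature Extraction 10.5.1.1, gives spot intensity without a log, beside quality marks. The authors also deposited log2 values of a part of the probes, which they had normalized by VSN. The scanner values were used: median local background was subtracted, 1115 outlier spots were left out and repeated spots (245 probes) averaged. VSN was programmed in R 4.3.3 (90% of probes kept in 7 iterations). Pearson's r with the deposited log2 values was at least 0.9999 on every array, across probes that are not independent replicates. The procedures were tested on simulated data.

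limma 3.58.1 compared the groups over 20031 probes (48.6%), with Benjamini-Hochberg adjustment and a threshold of 0.05. For a probe not well above background on any array of a group, the bound uses, per array, the lowest signal of probes that were, or its own if higher. Single quantities were compared by an exact two-sided permutation test over 70 assignments. p-values measure the spread between these pools, and the number of arrays limits the precision. Same-numbered samples correlated in their deviations from the group means (r = 0.44, 0.39, 0.60 and 0.14 for numbers 1, 5, 6 and 7), though Tbx5+/- number 7 was most like wild-type number 6. The numbers, which come from the labels, were taken to pair the samples. Same-numbered samples also held neighbouring array positions (3 and 4, or 1 and 2), so number and position cannot be told apart. The study's test, SAM, was programmed over 70 assignments on probes in the upper part of the interquartile range, with q-values.

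Every T-box probe was named, as was every other family gene, beside the 3 most like Tbx5. From each further list up to 4 genes were named. These had the smallest p among those at an unadjusted p under 0.05 whose groups did not overlap. Nppa, Gja5, Osr1, Ptch1, Cdkn1a, Gja1, Ripply3, Dll1 and Fgf8 were added after their values were seen. Genes of lists stand by their brightest tested probe, while the shares beside them are over all probes. With 1 probe per gene, 2048 of 13939 were lower and 570 higher at an unadjusted p under 0.05 with limma. Members and lists were chosen with earlier results of these data known, and 2 genes of the lists are not reported here. Current gene names were matched for 91.9% of the probes tested from a RefSeq table. Alternatives covered scaling, filters, fit and leaving out each array.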

Additional observations from a re-analysis of the deposited data

Results flagged for a closer look

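In 4 of 20 groups of 4 arrays examined, which are the 10 T-box probes in each genotype, 1 array stood far from the other three; chance gives about 1 in 20 such groups. Wild-type number 6 was low for Tbx5 probe A_52_P523712 (10.42, the next at 11.48). Tbx5+/- number 1 was low for Tbx18 probe A_51_P438711 (9.18, the next at 10.58) and for Tbx6 (7.18, the next at 8.38). Wild-type number 1 was low for Tbx2 (11.52, the next at 11.97).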

How the results depend on the processing

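The 5 scalings (VSN, VSN centred, percentile, quantile and deposited values) each left 0 T-box genes called with limma. The number called was 1 with the interquartile range filter, 5 with array weights (which called 53.4% of all probes), 4 with the embryo number as a replicate block and 4 with SAM, and ran from 0 to 3 when 1 array was left out. Tbx5 on A_52_P523712 was lower in every alternative run and passed with the interquartile range filter (-2.13), array weights (-2.59), the replicate block (-2.13) and SAM (-2.13), with a range of -2.40 to -1.97 when 1 array was left out. The T-box genes without overlap numbered 1 instead of 2 with percentile, quantile or median scaling, and 2 to 3 without 1 array. Of the 6 comparisons of Tbx5 with another member, 4 passed, 0 did under the replicate block, whose sign-flip test cannot pass with 4 pairs, and 0 to 5 without 1 array; of the 3 between probes of 1 gene, 0 to 3 did.

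Signs turned where differences were small. Tbx1 became -0.20 with array weights, -0.10 without Tbx5+/- number 1, -0.02 without Tbx5+/- number 7 and -0.31 without wild-type number 1 (0.24 at the highest, without Tbx5+/- number 6), and -0.52 within array label 2. Tbx2 became 0.27, 0.067 and 0.26 with percentile, quantile and median scaling, ran from -0.37 to 0.14 without 1 array (highest without Tbx5+/- number 1) and 0.19 within array label 1. Tbx5 probe A_51_P469338 became 0.16 after centring, 0.091 with array weights, 0.15 without Tbx5+/- number 1 (-0.34 at the lowest, without Tbx5+/- number 6) and 0.43 within array label 2. Tbx6 became -0.30 with the gap covariate, Tbx20 probe A_51_P427619 0.31 with array weights, and Tbx18 probe A_51_P438711 0.013 within array label 2. The cause was not tested. Beyond the 4 probes named in the text the replicate block changed no call of a T-box probe. Probes near background on the Tbx5+/- arrays (A_52_P279263, A_52_P429876) measure a bound more than a level.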
